A study of Mus musculus with 6 samples.

Results

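The nucleolar ribosome biogenesis genes described here are 10 genes of the 16095 in the table: the transcription factor gene Myc, 3 genes for proteins of box C/D small nucleolar ribonucleoproteins (Nop56, Nop58 and Fbl), 3 genes for abundant nucleolar proteins (Ncl, Npm1 and Nolc1) and 3 genes for ribosome assembly factors (Bop1, Wdr43 and Rbis). They were found by symbol. The set was chosen on the basis of earlier values of the same contrast that is described below, so the difference between the groups is given for these genes as a description, without a test. RNA was sequenced from sorted mouse kidney epithelial cells in 6 libraries, 3 labelled control (Trf1+/+) and 3 labelled Terf1_flox (Trf1lox/lox, with both alleles flanked by loxP sites). Trf1 is the protein of the gene Terf1, a subunit of the complex that covers telomeres. All mice, controls included, carried a tamoxifen-inducible Cre recombinase under the Ksp-cadherin promoter (KspCadherin-CreERT2, Cre+/t) and a fluorescent reporter (KFP+/t). Male and female mice, 6 to 8 weeks old, were given tamoxifen into the peritoneum 3 times a week for 8 weeks, and cells were then sorted by an EpCAM antibody and by reporter fluorescence. The sources used here do not say whether each library came from a separate mouse or from pooled mice. n is therefore the number of libraries, and p-values measure only the spread between them. In bulk RNA, fewer cells of a type and less RNA per cell cannot be told apart.

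Ribosomes are made in the nucleolus, where RNA polymerase I transcribes the precursor of the large ribosomal RNAs and a succession of assembly factors folds, modifies and cuts it. Box C/D ribonucleoproteins, in which a small nucleolar RNA (snoRNA) guides Fbl and is held by Nop56, Nop58 and Snu13, add methyl groups to the ribose of the precursor and take part in its cleavage. MYC is a transcription factor that binds many genes of this pathway. In kidney tubule cells, which divide rarely, the pathway supplies ribosomes for protein turnover and for growth after injury.

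Promoter sequence is shown for the 3 genes among these that had a RefSeq promoter entry and differed most between the groups (Nop56 and Nolc1) or served as the partner for comparison (Nop58). Each is the 250 bases before the annotated start, 5′ to 3′ on the strand of the gene, from RefSeq on build GRCm38.p6. Capitals mark the letters GGGCGG (the core of a GC box) and CCGGAA (the core of a binding motif of ETS factors) on either strand. Nop56 is at chr2:130274162-130274411 (+ strand), Nop58 at chr1:59684756-59685005 (+ strand) and Nolc1 at chr19:46075597-46075846 (+ strand).
Nop56: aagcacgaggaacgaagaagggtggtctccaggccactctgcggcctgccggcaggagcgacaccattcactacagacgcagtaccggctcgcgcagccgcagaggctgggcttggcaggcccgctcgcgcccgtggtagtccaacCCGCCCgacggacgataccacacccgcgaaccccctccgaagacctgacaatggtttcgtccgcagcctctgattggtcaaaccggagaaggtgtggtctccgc
Nop58: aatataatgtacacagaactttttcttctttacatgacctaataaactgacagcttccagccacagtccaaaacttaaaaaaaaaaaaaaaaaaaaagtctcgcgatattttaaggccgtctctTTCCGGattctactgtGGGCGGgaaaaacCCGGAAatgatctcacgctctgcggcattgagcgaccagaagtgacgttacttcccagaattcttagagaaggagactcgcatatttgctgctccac
Nolc1: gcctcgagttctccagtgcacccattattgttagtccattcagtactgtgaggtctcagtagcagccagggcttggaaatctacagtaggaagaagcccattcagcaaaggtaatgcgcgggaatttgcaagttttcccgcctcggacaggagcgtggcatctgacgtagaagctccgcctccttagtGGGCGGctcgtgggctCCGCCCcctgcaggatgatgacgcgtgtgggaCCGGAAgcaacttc

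RefSeq promoter entries were matched for 5 of the 10 genes (Nop56, Nop58, Ncl, Nolc1 and Wdr43). GGGCGG was found on either strand in 5 of 5, against 32.7% of 32851 promoters of the same length. In Nop56 it lay 104 to 99 bases before the start, in Nop58 110 to 105 bases and in Nolc1 62 to 57 and 46 to 41 bases before it. CCGGAA was found in 2 of 5 (Nop58 and Nolc1), against 12.0% of all promoters. The Nop58 window held it at 126 to 121 and at 97 to 92 bases before the start, and the Nolc1 window at 14 to 9 bases. The palindrome CACGTG, the E-box that MYC binds, was in 0 of 5 windows and in 6.02% of all promoters. ATTGG, the reverse of the CCAAT box, was on either strand in 1 of 5 (Nop56, 32 to 28 bases before the start) and in 33.8% of all promoters, and TATAAA was in 0 of 5 and 12.4%. None of the matches given here overlap each other. GC content of the printed windows was 65.2% for Nop56, 41.2% for Nop58 and 56.4% for Nolc1. A match of letters is a description and shows no binding.

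The libraries held 13582140 to 17680986 recovered reads. Levels are normalized counts, which are reads divided by a size factor of the library, and 1 read was worth 0.789 to 1.09 of them. Terf1, the targeted gene, was at 529.6, 486.1 and 663.9 in control replicates 1, 2 and 3 and at 62.0, 24.6 and 25.3 in Terf1_flox replicates 1, 2 and 3, so the labels and the targeted gene went the same way. All 9 nephron epithelium markers were present, led by Umod and Slc12a3, with sums of 244370 to 294678 in controls and 186085 to 237814 in Terf1_flox. Epcam, the sorting marker, was at 4671 ± 363 in controls and 2081 ± 802 in Terf1_flox (SD, n = 3 each) without overlap, while Cdh16, whose promoter drives Cre, was at 5641 ± 1354 and 4359 ± 365 with overlap. Of markers of other cells, 1 of 7 fibroblast markers was in the table (Col3a1, 1.76 to 14.2 in controls and 3.04 to 15.2 in Terf1_flox). So were 3 of 8 macrophage markers, with sums of 11.4 to 123.9 and 10.3 to 116.4. For lymphocytes 4 of 7 were present, with sums of 26.7 to 81.8 and 32.8 to 168.0. For the proximal tubule 5 of 6 were present, with sums of 286.5 to 1037 and 484.1 to 1813. Of the 7 endothelial and 5 podocyte markers, 0 were in the table. Absence from the table is not a measured level of 0. The mitochondrial share of reads was 10.3% to 13.0% in controls and 16.2% to 20.6% in Terf1_flox. The summed level of 16 immediate early and dissociation genes, led by Ier3 and Btg2, was 4962 to 5339 in controls and 4295 to 4883 in Terf1_flox. That sum hides differences between its genes, whose log2 fold changes ran from -2.81 to 3.57, with 6 above 0 and 10 below. The summed level of 9 proliferation genes, led by Pcna and Ccnb1, was 423.2 to 864.4 and 698.9 to 1086. The part of these differences in the results below was not tested.

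Across all genes, no gene passed an adjusted p of 0.05 with limma (0 of 14822 genes with a mean of at least 10, 0%) or with edgeR's quasi-likelihood test on the recovered reads (0 of 14822, 0%). At an unadjusted p below 0.05, limma gave 845 genes higher in Terf1_flox (5.7%) and 1250 lower (8.43%), and edgeR gave 1993 in all (13.4%). DESeq2's Wald test called 328 genes higher (2.47%) and 444 lower (3.34%) of the 13278 to which it gave an adjusted p. The share of genes at an unadjusted p below 0.05 in limma that were higher was 40.3%, and it was 25.4% with equal library totals, 50.4% with equal upper quartiles and 55.2% after correction for GC content and length. Groups did not overlap for 3126 genes (21.1%), 1531 of them higher in Terf1_flox (10.3%) and 1595 lower (10.8%).

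All 10 genes passed the filter, and their differences did not share a direction. Fitted log2 fold changes, Terf1_flox over control on the log2(value + 1) scale, were above 0 for 4 genes and below 0 for 6, with a median of -0.19 beside -0.08 over all genes tested. In the deposited normalized counts the groups did not overlap for 4 of the 10. Npm1 and Rbis were higher in every Terf1_flox library, and Nop56 and Nolc1 were lower in every one. Because the genes were chosen with this contrast in view, nothing is read from that count against the background of 21.1%. The other 6 genes overlapped between the groups. Log2 fold changes below are followed by their standard error from limma, and group means by the SD over 3 libraries.

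**Figure D1:**
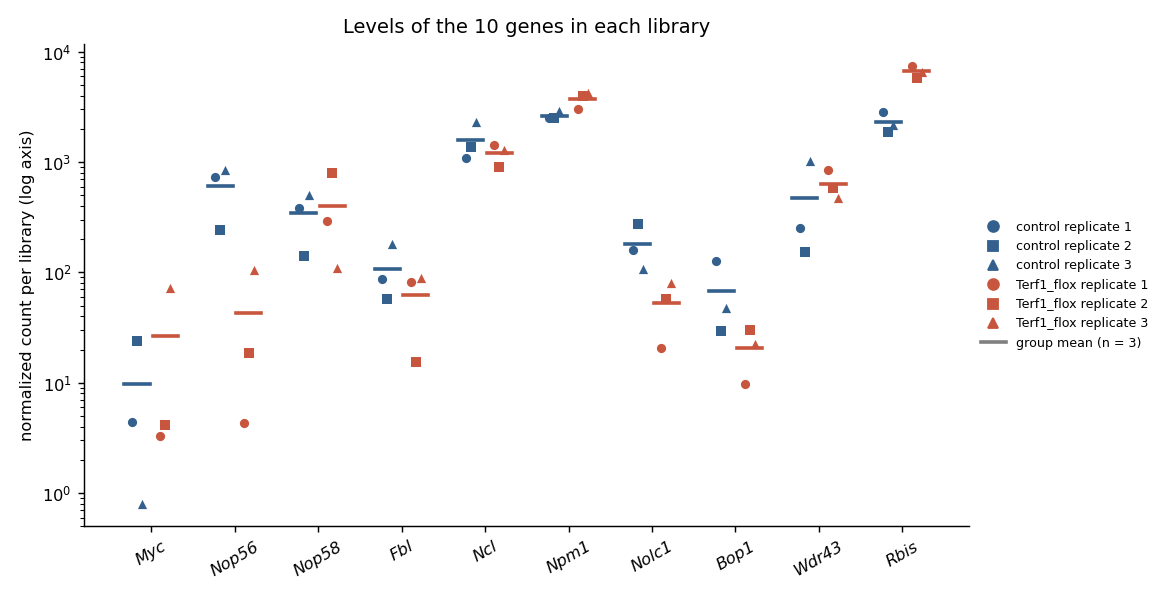
Normalized count (log axis) of each of the 10 genes in each library, blue for control and red for Terf1_flox, with the marker shape giving the replicate and a line at the group mean (n = 3). The 3 Terf1_flox points lie above all controls for Npm1 and Rbis and below all controls for Nop56 and Nolc1, and the groups overlap for the other 6 genes.

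Myc, the regulator of the group, was near the limit of detection in most libraries. It was at 4.40, 23.8 and 0.789 in control replicates 1, 2 and 3, which are 5, 25 and 1 reads. In Terf1_flox replicates 1, 2 and 3 it was at 3.26, 4.11 and 72.9, from 3, 4 and 72 reads. Terf1_flox replicate 3 was the highest of the 6 libraries, and the other 2 Terf1_flox libraries lay below control replicates 1 and 2, so the groups overlapped. The exact 95% Poisson interval of the single read in control replicate 3 was 0.0253 to 5.57 reads, and that of the 72 reads in Terf1_flox replicate 3 was 56.3 to 90.7 reads. These intervals cover counting error only. The log2 fold change was 0.91 ± 1.65 with all libraries and -0.41 without Terf1_flox replicate 3. It was 0.017 without control replicate 3, which held 1 read, and 1.91 without control replicate 2. Its sign rested on Terf1_flox replicate 3, and its size on that library and on both of these controls. Terf1_flox replicate 3 also had the highest summed proximal tubule markers (1813, against 484.1 and 500.8 in the other 2 Terf1_flox libraries and up to 1037 in controls). The same was so for lymphocyte markers (168.0, against 64.2 and 32.8 and up to 81.8 in controls). The part of these in its Myc level was not tested. Among genes with a mean of at least 50 and a standard symbol, those nearest to Myc in pattern over the 6 libraries were Arhgdig, Rsl1 and Zfp597, with root mean square differences of the centred log2 values of 0.50, 0.50 and 0.59. Terf1_flox replicate 3 was the highest library for all 3, at 173.1, 209.5 and 157.9, which follows largely from how they were picked.

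The widest difference among the 10 genes was that of Nop56, a core protein that binds the guide snoRNA. Its level was 731.9, 243.0 and 842.3 in control replicates 1, 2 and 3. In Terf1_flox replicates 1, 2 and 3 it was 4.35, 18.5 and 105.2. The highest Terf1_flox library was thus below the lowest control, and the values within Terf1_flox were also far apart. Mean levels were 605.7 ± 318.9 and 42.7 ± 54.6, which is 14.2-fold lower in Terf1_flox, and the log2 fold change was -4.58 ± 1.10. The lowest library held 4 reads (exact 95% Poisson interval 1.09 to 10.2), whereas control replicate 1 held 832. With 1 library left out the log2 fold change lay between -5.70 (without Terf1_flox replicate 3) and -3.55 (without Terf1_flox replicate 1). The nearest genes in pattern to Nop56 among 9709 compared were Degs2 (root mean square difference 0.49), Zfp189 (0.50) and Ube2l6 (0.54). All 3 had, like Nop56, their highest Terf1_flox level in replicate 3, at 58.7, 23.3 and 24.3. They were picked for a like pattern over these libraries, so this follows largely from the choice.

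Nop58, the paralogous partner of Nop56 in the same particle, did not share that pattern. It was at 383.5, 141.1 and 505.2 in the controls and at 293.7, 799.5 and 109.3 in Terf1_flox replicates 1, 2 and 3. Both the highest and the lowest library were Terf1_flox libraries, so the groups overlapped fully. The log2 fold change was -0.03 ± 0.79, and its sign turned in 8 of the other settings, among them edgeR (0.25) and the removal of Terf1_flox replicate 3 (0.68). The ratio of Nop56 to Nop58 shows the pair within each library, free of the scaling between libraries. That ratio was 1.91, 1.72 and 1.67 in the controls, a narrow range, although both genes varied between those libraries. It was 0.0148, 0.0231 and 0.963 in Terf1_flox replicates 1, 2 and 3, below every control.

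Fbl, the methyltransferase of the particle, overlapped between the groups. It was at 86.2, 57.2 and 180.0 in the controls and at 81.6, 15.4 and 89.1 in Terf1_flox, where replicate 2 stood lowest. The log2 fold change was -0.97 ± 0.93, and -0.17 without Terf1_flox replicate 2. The library with the lowest Fbl was the one with the highest Nop58, so the ratio of Nop58 to Fbl was 51.9 there, against 2.47 to 4.45 in the controls and 3.60 and 1.23 in the other 2 Terf1_flox libraries. Nop56 over Fbl was 8.49, 4.25 and 4.68 in the controls and 0.0533, 1.20 and 1.18 in Terf1_flox, again without overlap. Snu13, which completes the core of the particle and is not among the 10 genes, was at 1112 ± 306 in controls and 1626 ± 60.0 in Terf1_flox, and its difference on the log2 scale, 0.58 ± 0.29, did not pass (adjusted p 0.403 by limma). Per kilobase of transcript, the controls held the 4 core genes at mean levels of 535.5 ± 147.4 for Snu13, 322.7 ± 169.9 for Nop56, 200.4 ± 108.2 for Nop58 and 90.1 ± 53.6 for Fbl. In Terf1_flox the same order per kilobase was Snu13 (782.9 ± 28.9), Nop58 (234.0 ± 208.6), Fbl (51.8 ± 33.9) and Nop56 (22.7 ± 29.1). The ranges of neighbours in either order overlapped, except those of Snu13 and Nop58 in Terf1_flox. Within every control library, however, the order was that of the control means. Terf1_flox replicates 1 and 2 kept the order of the Terf1_flox means, while in replicate 3 Fbl (74.4) was above Nop58 (63.8).

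**Figure D2:**
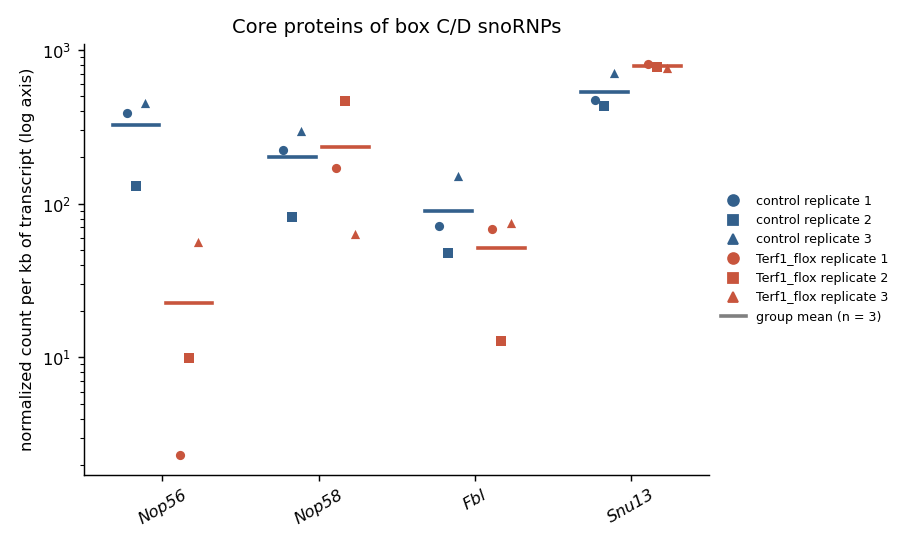
Normalized count per kilobase of transcript (log axis) of the 4 core protein genes of box C/D particles in each library, blue for control and red for Terf1_flox, with lines at group means (n = 3). Nop56 is the gene whose Terf1_flox points, 2.32 to 56.1 per kilobase, all lie below its controls, while Nop58 and Fbl overlap and Snu13 is higher in Terf1_flox.

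Several of these genes also carry snoRNA genes inside their bodies, a common arrangement in which the intron releases the snoRNA after splicing. GENCODE M21 (build GRCm38) places 5 snoRNA genes inside Nop56 on chromosome 2, among them Snord110 and Snord57. It places 4 inside Nop58 on chromosome 1, 3 inside Ncl on chromosome 1 and 3 inside Wdr43 on chromosome 17, and none inside the other 6 genes. The libraries were made from polyadenylated RNA. None of these snoRNA genes was in the table, so their levels could not be compared.

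The abundant nucleolar proteins differed among themselves. Ncl encodes nucleolin, which binds nascent ribosomal RNA. Its level was 1091, 1358 and 2305 in the controls and 1430, 902.1 and 1293 in Terf1_flox. Control replicate 3 was highest and Terf1_flox replicate 2 lowest, with overlap, and the log2 fold change was -0.34 ± 0.35. Npm1 encodes nucleophosmin, a histone and ribosomal protein chaperone of the outer nucleolar layer. It was at 2485, 2490 and 2907 in the controls and at 3042, 3942 and 4244 in Terf1_flox replicates 1, 2 and 3. In the deposited normalized counts every Terf1_flox library was above every control, though replicate 1 only by a small step over control replicate 3. As a share of library reads, Terf1_flox replicate 1 (2797 of 13870931) lay below control replicate 3 (3682 of 17680986), so on that scale the groups overlapped. The means of Npm1 were 2627 ± 242 and 3743 ± 625, and its log2 fold change was 0.50 ± 0.22, between 0.40 and 0.64 with 1 library left out. With equal library totals it was 0.32. Npm1 over Ncl was 2.28, 1.83 and 1.26 in the controls and 2.13, 4.37 and 3.28 in Terf1_flox, with overlap through replicate 1.

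Nolc1, a phosphoprotein that shuttles between nucleolus and Cajal bodies and accompanies snoRNPs, was lower in every Terf1_flox library. It was at 159.2, 275.5 and 106.6 in the controls and at 20.7, 57.5 and 79.9 in Terf1_flox replicates 1, 2 and 3. The gap between the nearest libraries, control replicate 3 and Terf1_flox replicate 3, was small beside the spread within either group. Mean Nolc1 levels were 180.4 ± 86.4 and 52.7 ± 29.9, which is 3.42-fold lower, with a log2 fold change of -1.85 ± 0.79. For both Nolc1 and Nop56 the lowest library was Terf1_flox replicate 1 and the highest Terf1_flox level was in replicate 3.

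Of the assembly factors, Bop1, a subunit of the PeBoW complex that is needed for the large subunit, was low throughout. It was at 127.6, 29.5 and 47.4 in the controls and at 9.79, 29.8 and 22.3 in Terf1_flox. The groups met at control replicate 2 and Terf1_flox replicate 2, which were nearly equal. Its log2 fold change was -1.54 ± 1.01, and -0.96 without control replicate 1, the highest library. Wdr43, a component of the small subunit processome, was at 250.7, 151.5 and 1015 in the controls and at 849.5, 576.8 and 476.7 in Terf1_flox. Control replicate 3 was above all Terf1_flox libraries and the other 2 controls were below them. Its log2 fold change was 0.86 ± 0.67, and leaving out control replicate 2 or control replicate 3 moved it to 0.29 or 1.65.

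Rbis, a small factor needed for maturation of the large subunit, was higher in every Terf1_flox library. It was at 2834, 1891 and 2172 in the controls and at 7442, 5842 and 6600 in Terf1_flox replicates 1, 2 and 3. The lowest Terf1_flox library was thus well above the highest control. Mean Rbis levels were 2299 ± 484 and 6628 ± 801, 2.88-fold higher in Terf1_flox, with a log2 fold change of 1.54 ± 0.23, between 1.41 and 1.70 with 1 library left out. Correction of the log2 values for GC content and length brought the value of Rbis to 0.56. The annotated Rbis transcript has 435 bases and a GC content of 39.1%, and 2.05% of the tested genes have a shorter transcript and 5.46% a lower GC content. The genes nearest to Rbis in pattern were Ly96, Polr2k and Dhtkd1, with root mean square differences of 0.12, 0.14 and 0.15 over the 6 libraries and 9709 genes compared. Polr2k, a small subunit shared by the RNA polymerases, was at 1400 to 1829 in the controls and 4039 to 4286 in Terf1_flox. Its likeness to Rbis follows from how it was picked.

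The make-up of the set differed between the groups. Rbis held 34.8%, 28.4% and 21.5% of the summed normalized counts (not scaled by length) of the 10 genes in the controls and 56.5%, 47.9% and 50.4% in Terf1_flox. The sum itself was 8154, 6660 and 10080 in controls and 13178, 12187 and 13093 in Terf1_flox, higher in every Terf1_flox library. Rbis was the largest part of the Terf1_flox sums, and it was among the genes chosen with this contrast in view. Its log2 fold change fell to 0.56 after GC content and length correction, and the sums carry no such correction. Without Npm1, Rbis and Ncl the remaining 7 genes summed to 1744, 921.7 and 2697 in controls and 1263, 1501 and 955.3 in Terf1_flox, with overlap. Per kilobase, Rbis (5285 ± 1114 in controls, 15237 ± 1841 in Terf1_flox) and Npm1 (1609 ± 148 and 2292 ± 383) were the 2 highest of the 10 in both groups. Nop56 was the 3rd highest mean per kilobase in controls and the 7th in Terf1_flox. Ncl was at 193.2 ± 77.8 and 147.4 ± 33.4 per kilobase, on an annotated transcript of 8202 bases, and Wdr43 at 136.9 ± 137.0 and 183.9 ± 55.9. That length is more than expected for the Ncl mRNA, so the Ncl level per kilobase may be too low. The rank of Ncl, and with it that of Nop56 in controls, rests on that length. Nolc1 (59.4 ± 28.4 and 17.3 ± 9.85), Bop1 (27.4 ± 21.0 and 8.27 ± 4.05) and Myc (7.09 ± 9.08 and 19.6 ± 29.3) were the lowest per kilobase in controls. In controls the ranges of Nop58, Ncl, Wdr43 and Fbl per kilobase overlapped. Within every control library, Nop58 was above Wdr43 and Fbl, and Ncl was above Fbl. The order of Nop58 and Ncl, of Ncl and Wdr43, and of Wdr43 and Fbl changed between those libraries.

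Log2 fold changes across all genes moved with the GC content of the transcript. With the genes in 5 equal bins by GC content, the median was 0.36 in the lowest bin (25.6% to 43.6%) and -0.48 in the highest (55.2% to 77.4%). Rbis, Npm1, Ncl and Nop58 belong to the lowest bin, Wdr43 to the next (median 0.06), Nop56 to the middle (-0.10), Nolc1 to the next (-0.32) and Myc, Fbl and Bop1 to the highest. After correction for GC content and length, log2 fold changes were 1.54 for Myc, -4.02 for Nop56, 0.06 for Nop58, -0.47 for Fbl, -0.65 for Ncl, 0.53 for Npm1, -1.36 for Nolc1, -0.73 for Bop1, 0.81 for Wdr43 and 0.56 for Rbis. Nop56 and Npm1 thus moved little, while Fbl, Bop1 and Rbis came closer to 0 by more than 1.5 times and Myc and Ncl moved away from it by as much. The bin and the corrected value of Ncl rest on its annotated transcript, which is longer than expected for its mRNA. The part of GC content and transcript length in the uncorrected values was not tested beyond this correction.

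**Figure D3:**
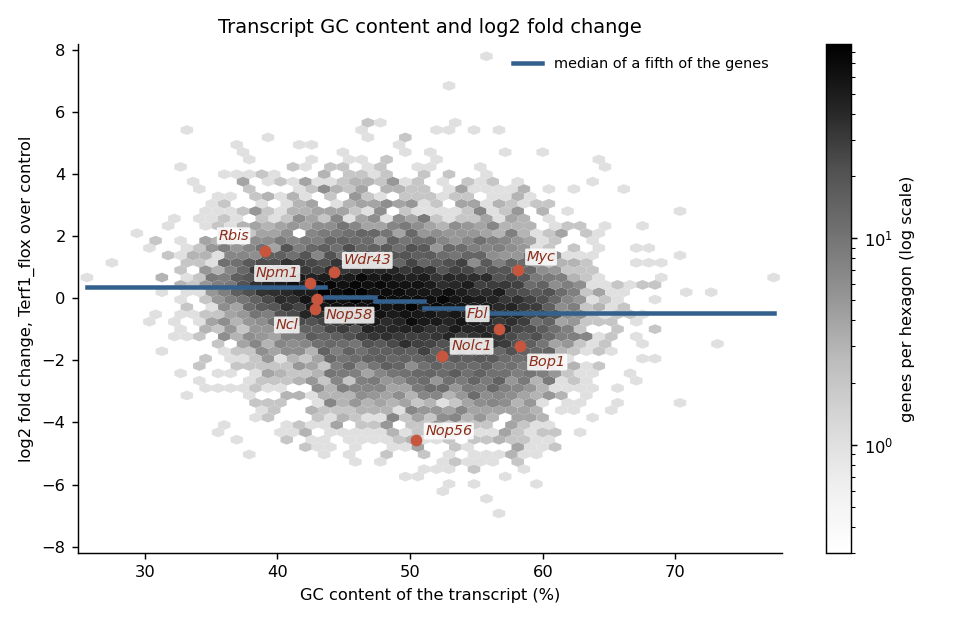
Log2 fold change, Terf1_flox over control, against the GC content of the transcript for all tested genes (grey hexagons, darker with more genes, log colour scale), the median of each of 5 equal bins of genes by GC content (blue lines) and the 10 genes (red points). The medians go from 0.36 at the lowest GC content to -0.48 at the highest, and Nop56 at -4.58 lies far below the line of its bin.

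**Figure D4:**
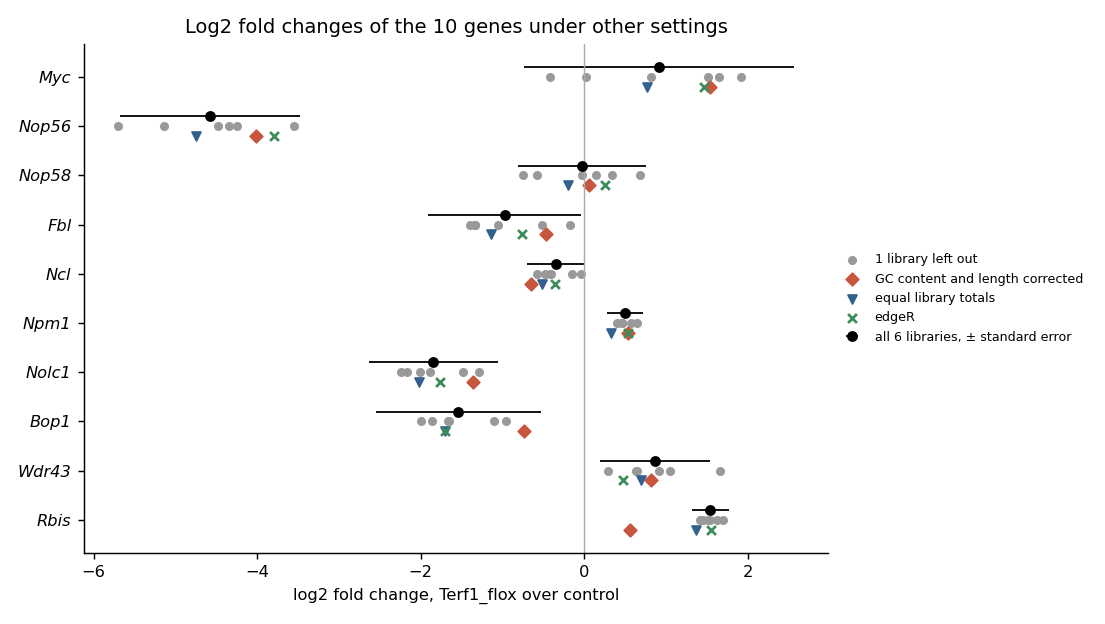
Log2 fold change, Terf1_flox over control, of the 10 genes with all libraries (black, bars are ± 1 standard error), with 1 library left out (grey) and under GC content and length correction (red), equal library totals (blue) and edgeR (green). Myc and Nop58 cross 0 among the settings plotted, and the other 8 genes stay on their side of it.

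The other genes of ribosome biogenesis, 149 in the table of 153 listed in 7 groups, showed 51 log2 fold changes above 0 and 98 below. Their median was -0.30, beside -0.08 over all genes. None was called by limma or edgeR, and at an unadjusted p below 0.05 limma gave 7 higher (4.70%, beside 5.7% of all genes) and 17 lower (11.4%, beside 8.43%). After GC content and length correction the median was -0.08, beside 0.07 over all genes. At an unadjusted p below 0.05, limma then gave 8 higher and 10 lower of 147, beside 894 higher and 727 lower of all 14650 genes. edgeR gave 17 at an unadjusted p below 0.05 (11.4%, beside 13.4%). Groups did not overlap for 35 of the 149 (23.5%, beside 21.1% of all genes), 13 higher and 22 lower. Without control replicate 1 the median was -0.42, and without control replicate 2 it was -0.46. DESeq2 called 5 higher (Nop10, Riok1, Ddx21, Taf1d and C1d) and 5 lower (Nop53, Eif6, Rrp1, Nop2 and Noc4l) of the 148 it tested, 6.76% in all beside 5.81% of all genes. Nop2 was named after its value was seen.

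By role, the 8 other box C/D and assembly genes had 2 values above 0 and 6 below. Their median was -0.57 and became -0.07 after GC content and length correction. In limma or edgeR, 0 of 8 had an unadjusted p below 0.05, beside 14.1% and 13.4% of all genes. Among the 6 H/ACA genes, whose particles guide pseudouridylation, 3 were above and 3 below 0. Their median was -0.12, and 0.32 after that correction. Nop10, a small protein of that particle, was at 4682 ± 619 in controls and 9034 ± 1330 in Terf1_flox without overlap (log2 fold change 0.95 ± 0.19, adjusted p 0.115 by limma and 0.00193 by DESeq2). Dkc1, the gene of the pseudouridine synthase beside it, was at 369.0 ± 50.5 and 145.1 ± 143.9. Its log2 fold change was -1.90 ± 0.80 (adjusted p 0.336 by limma and 0.387 by DESeq2). Nop10 and Dkc1 had the smallest unadjusted limma p in their direction within this list, so their opposite signs follow from that choice.

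Of 48 small subunit genes, 16 were above and 32 below 0 (median -0.36, and -0.17 after GC content and length correction). At an unadjusted p below 0.05, limma gave 2 higher (4.17%, beside 5.7% of all genes) and 6 lower (12.5%, beside 8.43%). Groups did not overlap for 18.8% of this list, beside 21.1% of all genes. Riok1, a kinase of late 40S maturation, was at 314.1, 186.8 and 140.5 in controls and 933.3, 722.5 and 958.4 in Terf1_flox, far apart (log2 fold change 2.09 ± 0.43, adjusted p 0.115 by limma and 0.000749 by DESeq2). Noc4l was at 198.6 ± 97.8 and 28.3 ± 19.1, with a log2 fold change of -2.95 ± 0.94. Of 51 large subunit genes, 17 were above and 34 below 0 (median -0.24, and -0.06 after that correction). Here limma gave 1 higher (1.96%, beside 5.7% of all genes) and 6 lower (11.8%, beside 8.43%) at an unadjusted p below 0.05. Ddx21, a helicase of nucleolar transcription and processing, was at 134.0 ± 14.1 and 403.1 ± 110.2 (log2 fold change 1.55 ± 0.47). Eif6, which keeps the immature large subunit from joining the small one, was at 1178 ± 233 and 297.0 ± 187.1 (log2 fold change -2.21 ± 0.55, adjusted p 0.150 by limma and 0.00617 by DESeq2). Rrp1 and Nop2 had log2 fold changes of -1.56 ± 0.44 and -4.53 ± 1.31, the latter with 0, 11.3 and 3.04 in the 3 Terf1_flox libraries.

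The 14 RNA polymerase I genes had 4 values above 0 and 10 below, with a median of -0.47. After GC content and length correction, which covered 12 of them, it was again -0.47. Taf1d, a subunit of its promoter selectivity factor, was at 419.7 ± 68.8 and 1290 ± 307 without overlap (log2 fold change 1.60 ± 0.34, adjusted p 0.121 by limma and 0.000737 by DESeq2). Of 9 nucleolar chaperones and scaffolds, 4 were above and 5 below 0 (median -0.09, and 0.30 after that correction). Nop53, a large subunit factor that recruits the exosome, was at 1265 ± 290 and 284.9 ± 133.9 (log2 fold change -2.26 ± 0.48, adjusted p 0.121 by limma and 0.000468 by DESeq2). Restricted to genes with a mean of at least 50, limma called Nop53 at an adjusted p of 0.0428. Of 13 exosome genes, 5 were above and 8 below 0 (median -0.18, and 0.02 after that correction). C1d, an exosome cofactor, had a log2 fold change of 0.90 ± 0.29 (adjusted p 0.232 by limma and 0.0371 by DESeq2).

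**Figure D5:**
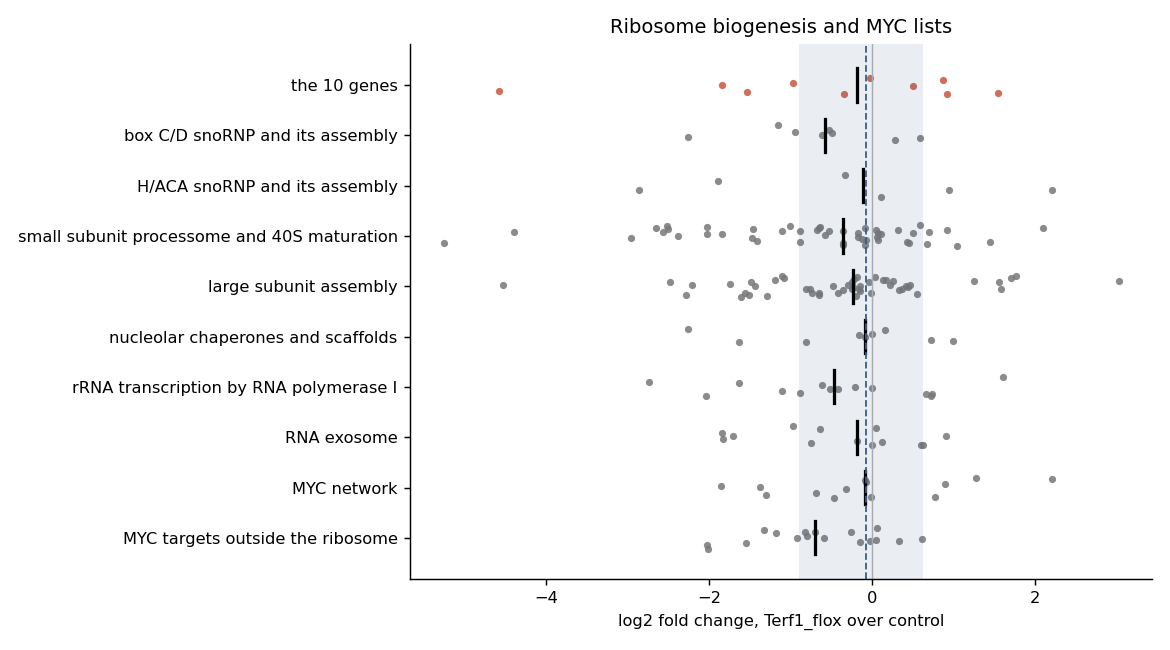
Log2 fold change, Terf1_flox over control, of each tested gene of the 10 genes (red) and of the other lists (grey), with a black bar at the median of each list, a dashed line at the median of all tested genes (-0.08) and a shaded band over the interquartile range of all tested genes. Every list has values on both sides of 0, and the median of the RNA polymerase I list is -0.47.

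The genes around Myc were called by neither limma nor edgeR (0 of 30 in the MYC network and target lists together, with 6 at an unadjusted p below 0.05 in each, which is 20.0%, beside 14.1% of all genes in limma and 13.4% in edgeR). Of 13 tested genes of the network, 4 were above and 9 below 0 (median -0.08, which became 0.38 after GC content and length correction). Mycn, a close relative of Myc, was at 28.5 ± 26.7 in controls and 112.9 ± 60.1 in Terf1_flox, with a log2 fold change of 2.21 ± 0.96. Of 17 MYC targets outside the ribosome, 4 were above and 13 below 0 (median -0.70, which became -0.25 after GC content and length correction). DESeq2 called 2 of the 30 (6.67%, beside 5.81% of all genes), both lower: Phb, a mitochondrial inner membrane scaffold, and Hspd1, the mitochondrial chaperonin. Phb was at 4166, 4612 and 6537 in controls and 2176, 1642 and 2212 in Terf1_flox (log2 fold change -1.33 ± 0.25, adjusted p 0.0945 by limma and 0.000184 by DESeq2). Hspd1 was at 2510, 2291 and 5665 in controls and 1061, 983.2 and 459.5 in Terf1_flox (log2 fold change -2.03 ± 0.45, adjusted p 0.128 by limma and 0.000163 by DESeq2). The groups did not overlap for either gene, and limma restricted to genes with a mean of at least 50 called Phb (adjusted p = 0.0343) and Hspd1 (adjusted p = 0.0418).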

How the data were processed

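RNA of sorted kidney epithelial cells was sequenced in 6 libraries (3 control, 3 Terf1_flox) with a low-input kit, per the labels. The values the authors deposited are normalized counts (a signal: reads over a size factor per library) of 16095 genes, listed by symbol. DESeq2 and build GRCm39 are named in the submitters' processing notes. For the aligner, counter and annotation, nothing was given in the sources. Of the deposited values, 100% were whole multiples of 1 read (within 0.01 of a read), and dividing by that step gave the reads. Reads were not marked by molecular identifiers in the sources used here, so intervals cover counting error only.

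The 10 genes and all gene lists were chosen with earlier results of these data known. Terf1_flox was compared with control by limma 3.58.1 (R 4.3.3, empirical Bayes with trend, two-sided) on log2(value + 1), with Benjamini-Hochberg adjustment over the 14822 genes whose mean reached 10. Calls were made at an adjusted p below 0.05. The 10 genes are always named. Of each pathway list the 2 genes with the smallest unadjusted p in each direction were eligible, and for Myc, Nop56 and Rbis the 3 genes with the nearest pattern. Other settings were a pseudocount of 0.5 or 5, no filter, a filter at a mean of 50, equal totals, equal upper quartiles, quantile normalization, edgeR 4.0.16 and DESeq2 1.42.0 on the recovered reads, a replicate block, a correction for transcript GC content and length (spline with 5 degrees of freedom) and leaving out each library. GC content and length were those of GENCODE M21 principal isoforms (build GRCm38) and were matched for 15874 genes. Because that build is not the one of the table, coordinates are given for RefSeq promoters alone. The tests were tried on simulated data. Figures were drawn with matplotlib 3.10.9.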

Additional observations from a re-analysis of the deposited data

How the results depend on the processing

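Over all genes, limma called 0 genes. It called 132 when the filter was a mean of 50, 45 with equal library totals and 8 with quantile normalization, and DESeq2 called 772. The number of other ribosome biogenesis genes called was 0, and it was 1 with a mean of at least 50 and 10 by DESeq2. For the MYC lists it was 0, and 2 under each of those settings. With 1 library left out these counts ranged from 0 to 0. The median log2 fold change of the other ribosome biogenesis genes was -0.30, and it was -0.47 with equal library totals, -0.19 with equal upper quartiles, -0.14 with quantile normalization and -0.081 after GC content and length correction. It ranged from -0.46 to -0.30 with 1 library left out. Equal totals moved the median of all genes by -0.17, from -0.08 to -0.24. The cause of these shifts was not tested. Among the 10 genes, 167 of 168 log2 fold changes under the alternatives lay within 1 SD of the first value (the SD between libraries of the log2 levels, pooled over the groups), the exception being Rbis after GC content and length correction (0.56). Within 1 limma standard error lay 165, the exceptions being Rbis again, Nop56 without Terf1_flox replicate 3 (-5.70) and Wdr43 without control replicate 3 (1.65). Signs changed in 9 of 168, 8 for Nop58 and 1 for Myc. The filters and the replicate block cannot change a log2 fold change. Leaving out 1 of 3 libraries cannot move it by 1 SD. Those settings therefore had to lie within 1 SD, and the count of 167 says little about robustness. With the replicate number as a block, limma called 0 genes over all, 0 other ribosome biogenesis genes and 0 MYC genes, with 1884 genes at an unadjusted p below 0.05 against 2095 without the block. Deviations of same-numbered libraries had correlations of -0.05, 0.00013 and -0.0069, and those of differently numbered libraries had -0.028 to 0.039. These values cannot settle whether the numbers pair the samples. Counting error limits Myc most, which had 1 to 5 reads in 4 of the 6 libraries.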
